A study of Mus musculus with 4 samples.

Results

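Dexamethasone (Dex, a synthetic glucocorticoid) added to estradiol (E2) was examined by setting the DNase-seq library of 7438 cells given both hormones (Dex+E2) against the library of the same cells given E2 without Dex. The members were all hypersensitive regions in the lists deposited for these 2 libraries, 50061 after Dex+E2 and 35496 after E2. Overlapping regions were merged into 59700 sites, where the lists of the whole series, which also has a Dex and an untreated library, merged into 103312. A Dex+E2 region was counted as gained when no E2 region overlapped it by 1 bp or more, and an E2 region was counted as lost when no Dex+E2 region did.

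The 7438 line is a mouse mammary line in which the glucocorticoid receptor (GR), tagged with GFP, and the estrogen receptor (ER), tagged with Cherry, are expressed under a tetracycline-regulated promoter, so that both receptors are introduced fusion proteins. In every group, the untreated one included, cells were plated 48 h before the experiment in charcoal-dextran serum, and tetracycline was withdrawn 24 h before hormone. The groups were 100 nM Dex with 100 nM E2 for 30 min, 100 nM E2 for 30 min, 100 nM Dex for 30 min, and no hormone, with 1 library each. No effect could therefore be tested against a spread between replicates, and every value below describes these libraries. Genes and mammary markers near the regions were not analysed here, since no annotation of the mm9 build of the lists was used.

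DNase I cuts DNA where nucleosomes are displaced or remodelled, so that hypersensitive regions mark accessible promoters and enhancers. GR and ER are ligand-activated transcription factors of the nuclear receptor family. Once Dex is bound, GR enters the nucleus and binds DNA, mostly at chromatin that is already open and at a smaller set of sites where remodelling complexes are recruited and chromatin opens. ER activated by E2 also binds largely at accessible enhancers, and the opening of a site by one receptor can make it available to the other.

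Absence of a region from a list means that its score stayed under the threshold the authors used for that library, and chromatin at such a place may still be partly open. The deposited maximum tag density of a region, here called its density, lay on whole multiples of 1 step per library, read as the value of 1 tag. The median summit had 36 tags after Dex+E2 and 37 after E2 over each whole list, and at the shared sites that differed by less than 2-fold relative to the library medians, the median summits had 61 tags after Dex+E2 and 47 after E2. E2 regions whose score lay under 5.5, just above the lowest score in the list, 5.26, had a median density of 5.00, and 99% of them had at most 7.81. Densities are given with exact Poisson 95% intervals and shares with Wilson 95% intervals, which describe counting error only.

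With Dex added, 24866 of the 50061 regions were gained, which is 49.7% of the Dex+E2 list (49.2 to 50.1), and 9853 of the 35496 E2 regions were lost, which is 27.8% (27.3 to 28.2). With both lists held to the same length of 35496 regions, 12376 were gained and 11897 lost. Most gained regions were weak and narrow. Their median density was 6.13 and their median width 416 bp, against 13.8 and 693 bp for the 25195 Dex+E2 regions that were shared. Lost regions were also weak and narrow for their library. Their median density was 5.20 in the E2 library and their median width 313 bp, against 9.20 and 602 bp for the 25643 shared E2 regions. Deposited densities of the 2 libraries are not on a like scale, so the gained and lost medians are not ranked. A gained region at the median of its class was chr1:4756713-4757008, with a density of 6.13 (4.04 to 8.91), and a lost one was chr1:5568387-5568638, with 5.20 (3.40 to 7.62). Few regions lay at the edge of the overlap rule. Of the shared Dex+E2 regions, 66 overlapped an E2 region by under 50 bp (median density 5.67), and 425 gained regions lay under 150 bp from an E2 region (median 6.81).

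The gained share of the Dex+E2 list was lower in each denser range. It was 86.2% of the regions with a density under 6, 71.3% from 6 to 8, 42.1% from 8 to 12, 13.7% from 12 to 20 and 2.89% at 20 or more. In the E2 list, 62.2% of the regions under 6 were lost, and 25.7%, 3.78%, 0.667% and 0.137% in the same 4 higher ranges. Regions with a density of at least 20, a limit taken over from an earlier analysis of these data, are called strong. There were 234 strong gained regions among 8103 strong Dex+E2 regions and 5 strong lost regions among 3651 strong E2 regions. These counts are not on a like scale. The limit was applied to deposited densities, whose median at shared sites was 1.504 times higher after Dex+E2, and the Dex+E2 list was longer. At a limit of 30, chosen after seeing the data, 65 gained regions were strong. When an overlap had to cover 50% of both regions the strong gained regions numbered 555, and with both lists held to a score of at least 8 they numbered 386.

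The Dex and untreated libraries played no part in choosing gained, lost and shared regions. Of the 234 strong gained regions, 231 (98.7%, 96.3 to 99.6) were in the list of Dex without E2, about the same share as of the strong shared regions (98.4%, 98.1 to 98.6). In the untreated list the classes stood apart, with 136 of the strong gained regions (58.1%, 51.7 to 64.3) against 98.4% (98.1 to 98.7) of the strong shared ones. Listing after Dex but not in untreated cells applied to 41.0% of the strong gained regions and 0.686% of the strong shared regions. Weak gained regions recurred much less. Under a density of 6, 17.8% were in the Dex list and 26.2% in the untreated list, against 55.7% and 70.8% of the shared regions in that range, and 68.7% were in neither. Over all densities, 36.1% of gained regions were in the Dex list (35.5 to 36.7) and 43.7% in the untreated list.

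**Figure D1:**
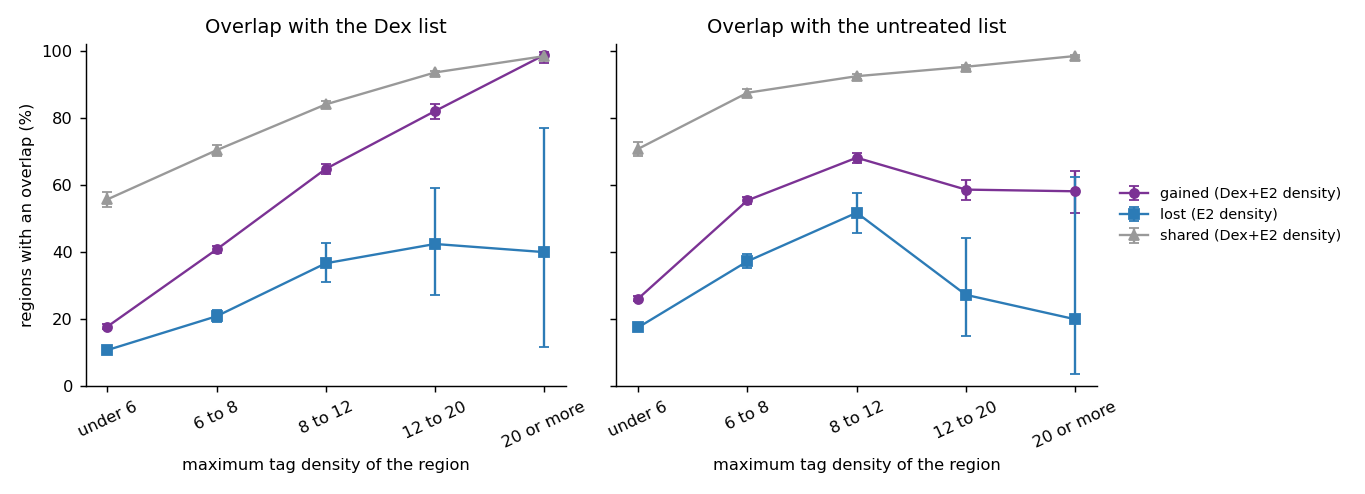
Share of gained, lost and shared regions that overlap a region of the Dex list (left) or of the untreated list (right), by the density of the region in its own library, with Wilson 95% intervals. Gained regions climb to 98.7% in the Dex list and lie at 58.1% in the untreated list in the densest range, where shared regions reach 98.4% in both.

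At the strong gained regions the densities after Dex+E2 and after Dex were alike, and those of untreated cells were lower where listed. The 231 regions in the Dex list had a median density of 25.2 after Dex+E2 and 30.4 after Dex, and 210 of them (90.9%) were within 2-fold of each other as deposited. Of the 135 that were in both other lists, 125 (92.6%) were denser after Dex than in untreated cells, with medians of 25.6 after Dex+E2, 31.3 after Dex and 12.2 untreated. Among the 7688 strong shared regions in both other lists, 506 (6.58%) were denser after Dex than untreated. Their medians were 31.5 after Dex+E2, 29.1 after Dex and 60.4 untreated. Closeness of Dex+E2 and Dex was thus not particular to the gained regions, and the share within 2-fold is not given for the shared ones. This low share was the rule in these libraries: of the 21460 sites found in all 4 lists, 6.26% were denser after Dex than untreated.

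The densest gained region was chr4:64255821-64256908, with a density of 118 (108 to 129) after Dex+E2 and 123 after Dex, no listing after E2 and 16.3 in untreated cells. At chr4:59348453-59349795 the density was 80.3 (72.2 to 89.1) after Dex+E2 and 115 after Dex, with no listing after E2 or in untreated cells. The same pattern of both Dex libraries and neither other one held at chr8:129330987-129331941, with 69.9 after Dex+E2 and 54.1 after Dex. It also held at chr12:80453055-80454107, with 64.7 after Dex+E2 and 79.3 after Dex. As deposited, these 4 sites were more than 10 times denser than the median E2 region near the threshold.

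Among the remaining 6 of the 10 densest gained regions, chr2:22507293-22507916 (53.1 after Dex+E2, 55.8 after Dex) was also missing from both lists without Dex, with a score of 16.4, the lowest of the 10. The other 5 were listed in untreated cells at low densities. They were chr4:55788554-55789622 (64.9 after Dex+E2, 52.7 after Dex and 14.3 untreated), chr2:152611018-152612301 (56.3, 68.6 and 16.1), chr16:5119259-5120115 (54.9, 56.6 and 12.8), chr17:28652431-28653473 (54.0, 63.9 and 10.7) and chr6:135024176-135025172 (51.7, 63.4 and 14.8). All 10 were in the Dex list, at 52.7 or more.

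The 3 strong gained regions that were not in the Dex list, named after their values were seen, were weaker. At chr15:100122786-100123524 the density after Dex+E2 was 34.9 (29.6 to 40.9) and at chr16:11211433-11212082 it was 21.8 (17.6 to 26.6), and both were in no other list. The third, chr16:30835442-30836420, had 23.6 (19.3 to 28.6) after Dex+E2 and 7.65 in untreated cells.

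**Figure D2:**
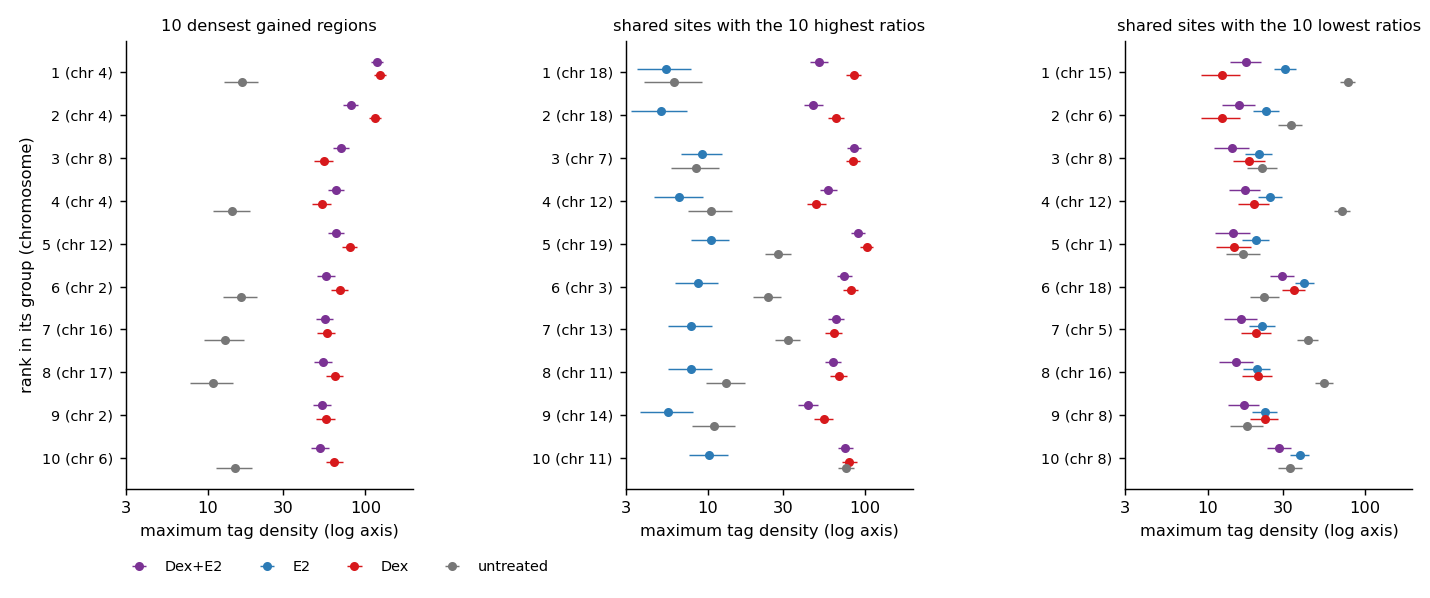
Maximum tag density on a log axis in the 4 libraries at the 10 densest gained regions (left), at the shared sites with the 10 highest ratios of Dex+E2 over E2 (middle) and at those with the 10 lowest ratios (right), with exact Poisson 95% intervals. A missing point means that the region is not listed in that library; at the left no region has an E2 point, in the middle both Dex libraries lie far to the right of E2, and at the right the Dex+E2 and E2 points lie close together.

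The strong gained regions were mostly scattered. With gaps of up to 100 kb allowed, 182 stood alone, 17 pairs were found and 5 clusters held 3 or more, so that 52 of the 234 (22.2%) had a strong gained neighbour. The largest cluster, chr15:85818160-85999297, held 5 strong gained regions with densities of 20.9 to 35.4 after Dex+E2, all in the Dex list and 3 in the untreated list. A cluster of 4 lay at chr17:28556585-28653473 with densities of 23.8 to 54.0, all in the Dex list and 2 in the untreated list. Its member chr17:28625130-28625928 had 26.8 after Dex+E2 and only 8.57 after Dex, whereas the other members had 29.1 to 63.9 after Dex. The remaining clusters held 3 regions each, at chr18:9485764-9509934, chr2:167648343-167703261 and chr4:149149244-149191393. None of the 3 strong gained regions of the chromosome 18 cluster was in the untreated list. Their densities were 41.1, 22.7 and 29.3 after Dex+E2 and 63.7, 35.8 and 34.8 after Dex.

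These clusters were not empty of E2 regions. In the chromosome 17 span 3 of the 8 Dex+E2 regions were shared, and in the chromosome 15 span 8 of 17 were. More widely, 61.5% of the strong gained regions lay within 10 kb of an E2 region, against 55.6% of the strong shared regions, for which the nearest other E2 region was taken. Weak gained regions lay farther off, with 27.3% within 10 kb against 48.7% of shared regions of the same densities. In width the strong classes were similar, with medians of 842 bp for gained and 889 bp for shared regions, and the ratio of average to maximum density was 0.230 and 0.237.

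**Figure D3:**
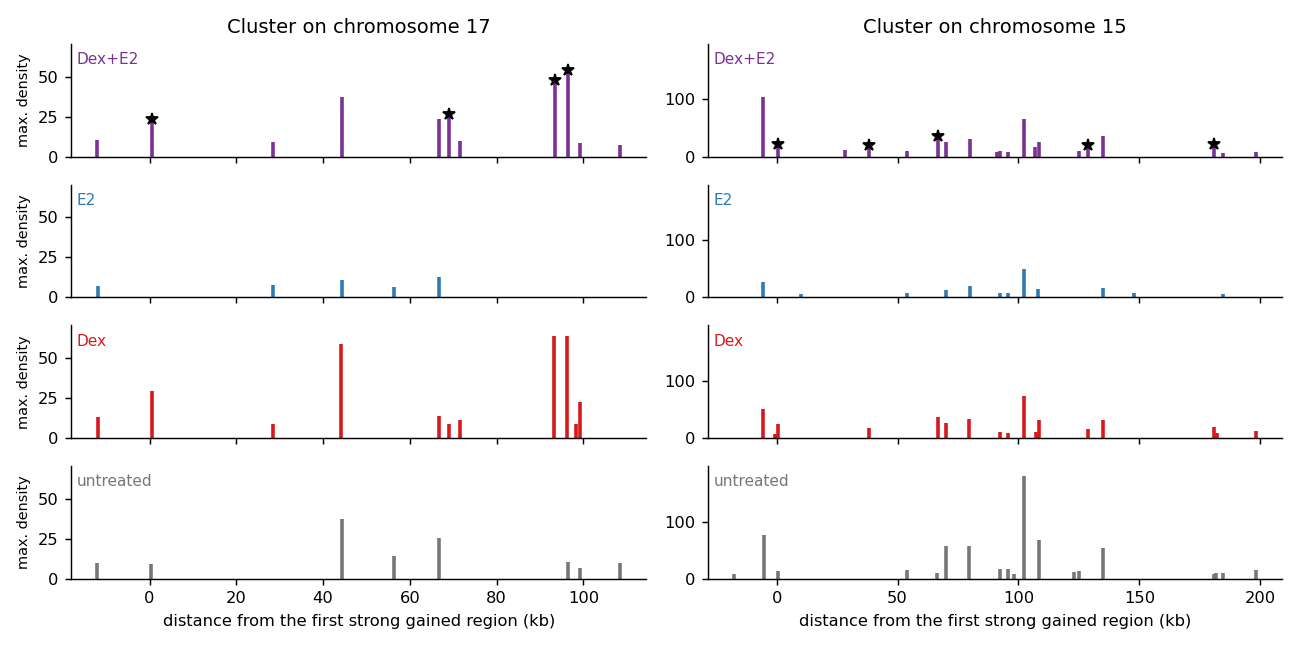
Regions of the 4 libraries around the chromosome 17 and chromosome 15 clusters, with distance from the first strong gained region in kb on the x axis and maximum tag density as bar height; stars mark the strong gained regions. The starred regions have a counterpart in the Dex row and none in the E2 row, while shared regions lie between them.

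Few lost regions were strong at the same deposited limit. Of the 9853, 73.1% were in neither the Dex nor the untreated list, 13.7% (13.1 to 14.4) were in the Dex list and 22.6% (21.8 to 23.5) in the untreated list. Of the shared E2 regions, 5.55% were in neither, 87.4% in the Dex list and 92.9% in the untreated list. All 5 strong ones lay in 2 narrow stretches on chromosomes 8 and 11 that an earlier analysis had picked out as very dense and repeat-type. Whether these stretches hold repeats was not checked here. The 5 were chr11:3038288-3038573 with 42.4 (36.9 to 48.5) after E2, chr8:19976159-19976421 with 27.6, chr11:3039007-3039284 with 25.2, chr8:19895260-19895657 with 22.0 and chr8:19977629-19977885 with 21.0. In the Dex list were 2 of them, chr11:3038288-3038573 at 46.8 and chr8:19895260-19895657 at 18.4. In the untreated list was 1, chr11:3039007-3039284 at 56.6, and 2 were in neither list. The scores of the 5 ran from 5.42 to 9.29. At the 84 shared sites of the chromosome 8 stretch the median density was 24.2 after Dex+E2 and 24.5 after E2, and at the 21 of the chromosome 11 stretch it was 77.8 and 78.4. Outside the stretches the densest lost regions, named after their values were seen, were chr2:177303575-177304147 at 17.6 (14.1 to 21.7), with 14.5 untreated, and chr1:90149337-90150451 at 15.6 (12.3 to 19.5), with 15.4 after Dex.

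By chromosome, the gained share ran between 42.4% of the Dex+E2 regions on chromosome 11 and 59.4% on chromosome X. The median density of all Dex+E2 regions was 10.2 on chromosome 11 and 4.31 on chromosome X, and the part of density in this range was not tested. On chromosome X lay 1 of the 234 strong gained regions and 107 of the 7869 strong shared regions.

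Sites in both lists, 24985 in number, were mostly denser with Dex added. The median density was 13.8 after Dex+E2 and 9.20 after E2, a ratio of 1.504, and 88.9% of the sites were higher after Dex+E2 as deposited. The average density gave 3.46 and 2.47, a ratio of 1.40. Sites were also wider, with 78.7% of them covering more base pairs in the Dex+E2 list. With 1 library a side, a shift that runs through nearly all sites cannot be told apart from a difference between the libraries. Ratios at single sites are therefore divided by the library medians over the 24985 sites.

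On this scale 423 sites were at least 2-fold higher after Dex+E2 (1.69%) and 287 at least 2-fold lower (1.15%). Centring on the median log2 ratio gave 538 higher and 175 lower, and the deposited densities 3094 and 6. Higher sites reached further, with 26 at 4-fold or more and none of the lower ones there, whereas by average density 34 sites were 4-fold higher and 17 were 4-fold lower. The middle 50% of all sites lay between −0.36 and 0.21 on the log2 scale. The higher sites had median densities of 33.1 after Dex+E2 and 8.40 after E2, and covered a median of 920 and 594 bp. Of these sites 371 were strong in at least 1 of the libraries. The lower sites were weak, with medians of 5.90 after Dex+E2 and 8.60 after E2, and 10 of the 287 were strong in either library. By average density 619 sites were higher and 486 lower, of which 345 and 147 were called by both measures.

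**Figure D4:**
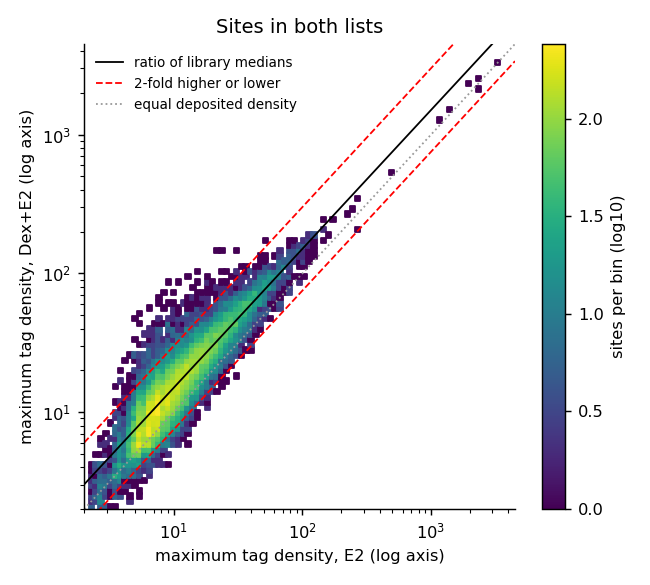
Maximum tag density after E2 (x axis) and after Dex+E2 (y axis), both on log axes, at the 24985 sites in both lists; colour gives the log10 number of sites per bin. The solid line is the ratio of the library medians, 1.504, and the dashed lines are 2-fold above and below it, with 423 sites on or above the upper line and 287 on or below the lower one.

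The calls depended on the level of a site. At a mean density of both libraries under 6, none of 2148 sites was 2-fold higher and 94 were 2-fold lower, and the median log2 ratio was −0.51. The absence of higher calls was largely set beforehand, since such a call needed 2 times the ratio of medians, 1.504, as deposited. Few listed sites could reach that within a mean under 6. A lower call needed a smaller departure from equal deposited densities. From 20 to 40, 180 of 4265 were higher and 5 lower, with a median of 0.10, and at 40 or more 49 of 1542 were higher and none lower. As deposited, the median log2 ratio was 0.08 in the weakest range and 0.69 in the 20 to 40 range.

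At the top of the shared sites, named among the 7887 whose denser library reached 20, were 2 neighbours on chromosome 18. Both lay within the span of the cluster described above. At chr18:9491174-9494818 the density was 51.05 (44.6 to 58.2) after Dex+E2 and 5.40 (3.56 to 7.86) after E2, with 84.5 after Dex and 6.12 untreated, or 6.28-fold higher relative to the medians of Dex+E2 and E2. The adjoining chr18:9488498-9491059 had 46.7 after Dex+E2, 5.00 after E2 and 65.1 after Dex and was not listed in untreated cells (6.21-fold). The first covered 3557 bp in the Dex+E2 list and 642 bp in the E2 list, the second 2561 and 255 bp. In the E2 list both sites were thus short, with densities near those of regions at the threshold.

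The other sites of the 10 highest ratios were narrower, from 897 to 1101 bp after Dex+E2. At chr7:117926315-117927250 the density was 85.3 (76.9 to 94.4) after Dex+E2 and 9.20 (6.73 to 12.3) after E2, with 83.5 after Dex and 8.42 untreated (6.16-fold). At chr12:76404928-76405873 it was 58.3 after Dex+E2 and 6.60 after E2 (5.87-fold, and 7.71-fold by average density). The sites chr19:44299872-44300973 (89.8 after Dex+E2, 10.4 after E2, 5.74-fold) and chr3:21908652-21909652 (73.5 and 8.60, 5.68-fold) followed. A different untreated level stood at chr11:102590775-102591721, with 74.6 after Dex+E2, 10.2 after E2, 79.3 after Dex and 75.7 in untreated cells; as deposited, the E2 library was the low one of the 4 there, while relative to the medians the Dex library was also 2.15-fold above the untreated one. All 10 were in the Dex list, and 9 of the 9 that were also in the untreated list were at least 2-fold higher for Dex over untreated relative to those medians.

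The sites of the 10 lowest ratios ran from 0.375-fold to 0.495-fold. The lowest, chr15:33573229-33574485, had 17.5 (13.8 to 21.8) after Dex+E2 and 31.0 (26.3 to 36.3) after E2, with 12.2 after Dex and 77.5 untreated. At chr6:143328879-143329590 the densities were 15.9 after Dex+E2 and 23.6 after E2, with 12.2 after Dex and 33.7 untreated. Of the 10, 3 lay in the chromosome 8 stretch. As deposited, 10 of the sites with the highest or lowest ratios no longer reached 2-fold, all of them lower ones, though none changed direction. The 3 densest shared sites stood below the median ratio, led by chr13:85266254-85267336 with 3413 after Dex+E2 and 3270 after E2, 0.694-fold.

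The ratio of Dex over untreated shares no library with that of Dex+E2 over E2 and was set beside it at the 21460 shared sites that were in all 4 lists, each pair relative to its own medians over its sites. The medians over these sites were 14.9 for Dex and 30.6 untreated, a ratio of 0.488. A 2-fold higher call for Dex over untreated therefore did not need a deposited Dex density above the untreated one. Over all of the 21460 sites, 6.68% were 2-fold higher and 1.14% 2-fold lower for Dex over untreated. Of the 388 that were 2-fold higher for Dex+E2 over E2, 292 (75.3%) were 2-fold higher for Dex over untreated as well and none was 2-fold lower. By average density this share was 49.5% of 539 sites, and with deposited densities 3.27% of 2873. The 2-fold share over all sites is not given for these settings, so neither value can be set against 6.68%. As deposited, 6.26% of all sites were higher to any degree for Dex over untreated. In 379 of the 388 (97.7%) the Dex over untreated ratio lay above its median level, against 48.5% of all sites. Median densities at these 388 were 34.0 after Dex+E2 and 8.70 after E2, and 35.3 after Dex and 25.2 untreated.

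The relation was seen toward the upper end. Between −0.5 and 0.5 on the log2 scale of Dex+E2 over E2, which held 16650 of the sites, the median log2 ratio of Dex over untreated was −0.07 below 0 and −0.02 above 0. It was 0.28 from 0.5 to 1, 1.40 from 1 to 2, and 2.84 among the 22 sites at 2 or more, all 22 of which were 2-fold higher for Dex over untreated. At the lower end the values did not mirror this. Of the 214 sites 2-fold lower for Dex+E2 over E2, 10 (4.67%) were 2-fold lower and 52 (24.3%) were 2-fold higher for Dex over untreated, and their median was 0.26. Their median densities were low, with 6.35 after Dex+E2 and 8.999 after E2, and 7.84 after Dex and 14.5 untreated.

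**Figure D5:**
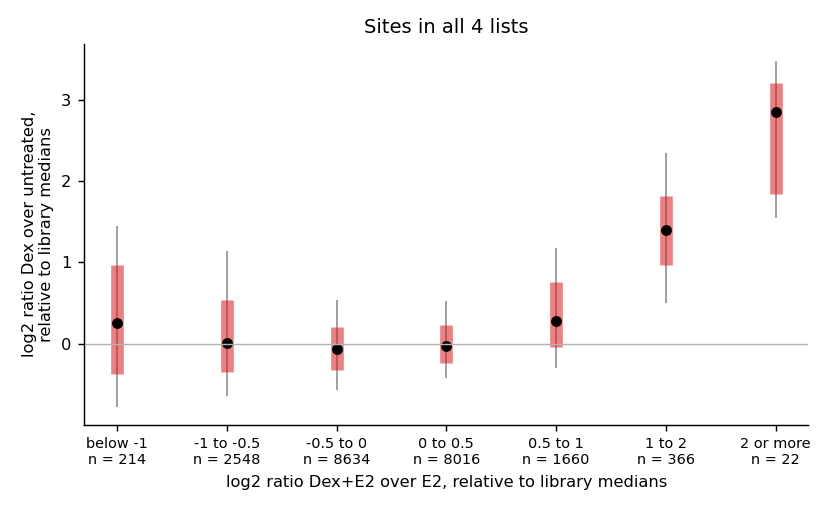
Log2 ratio of Dex over untreated (y axis) at sites in all 4 lists, grouped by their log2 ratio of Dex+E2 over E2 (x axis), both relative to library medians; points are medians, thick bars the middle 50% and thin lines the 10th to 90th percentiles. Medians are 0.26 in the lowest group, near 0 from −1 to 0.5, 0.28 from 0.5 to 1, and reach 1.40 and 2.84 in the 2 highest groups.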

How the data were processed

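For each of the 4 DNase-seq libraries the authors deposited a list of regions, with its own threshold. The submitters' processing notes name mm9 as the build and CASAVA 1.8 as a tool whose part is unknown; which aligner and region caller were run is not given in the sources used here. The columns, per the file headers, are maximum and average density of tags. The authors deposited these signal values scaled by library to an unknown total, so read totals are unknown. The deposited score and p-value rate a region against its own library's background; p-values were not used. Positions are printed as deposited; their counting base is unknown. Maximum densities were whole multiples of 1 step in 100% of regions, to 0.02 tags, and the steps were 0.227 (Dex+E2), 0.200 (E2), 0.245 (Dex) and 0.255 (untreated).

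Regions overlapping by 1 bp were shared, and overlapping regions were merged into sites that took the highest value of each library. Ratios were divided by the ratio of library medians, as the comparison was defined; the design had also named the median log2 ratio, which is an alternative. Named regions were the 10 densest gained, the 5 densest lost, the shared sites with the 10 highest and 10 lowest ratios among those reaching 20 in 1 library, the 3 densest shared sites, of which the first is described, and 1 gained and 1 lost region at the class median; other regions named, those of the clusters included, were chosen after their values were seen. The comparison, its limits and these lists were chosen with earlier results of these data known. Planned gene lists and sequence motifs were not used, since no mm9 genome or annotation was used. Functions were checked on simulated data. Calculations ran in Python 3.11.15 with pandas 2.3.3, NumPy 2.4.6 and SciPy 1.17.1, and plots in Matplotlib 3.10.9.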

Additional observations from a re-analysis of the deposited data

Results flagged for a closer look

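At 4 of the named shared sites with low ratios, the ratio of Dex+E2 over E2 lay below its library medians and that of Dex over untreated above; these opposite directions come from 1 library each and the difference was not tested. As deposited, Dex lay below untreated at 2 of the 4, so that the directions are opposite there only relative to the medians: chr8:19711027-19711887, with 18.4 after Dex and 22.2 untreated, and chr1:85081119-85082010, with 14.7 after Dex and 16.8 untreated. The log2 ratio of Dex over untreated was 1.65 at chr18:82390203-82391087, where Dex+E2 over E2 was −1.06. It was 1.40 at chr8:19727738-19728228 (−1.02 for Dex+E2 over E2) and 0.76 at chr8:19711027-19711887 (−1.16), both in the chromosome 8 stretch. At chr1:85081119-85082010 it was 0.84, against −1.07 for Dex+E2 over E2.

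Over all sites in 4 lists, 52 were 2-fold lower for Dex+E2 over E2 and 2-fold higher for Dex over untreated, and none the other way round. These were weak sites, with median densities of 4.99 after Dex+E2 and 7.30 after E2, and 6.73 after Dex and 5.10 untreated; 2 of them reached 20 in the Dex+E2 or E2 library and 1 lay in the chromosome 8 or 11 stretch. Whether these differences come from the hormones or from the division by library medians was not tested.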

How the results depend on the processing

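No paired analysis was possible because each condition had 1 library. Of 104 recomputed counts, shares and median ratios, 74 stayed within 1.5 times the count, the interval of the share or 0.1 of the log2 ratio. Some of these could not move. The median deposited log2 ratio does not depend on centring or fold limit. Equal list lengths removed only the least dense Dex+E2 regions, which leaves the strong gained regions as they were. With equal list lengths, 12376 regions were gained and 11897 lost. A score of at least 8 gave 10410 gained and 1296 lost regions, 16507 shared sites and 386 strong gained regions, 93.5% of them in the Dex list. An overlap of 50% of both regions gave 555 strong gained regions, 79.1% of them in the untreated list. Density limits of 15 and 30, chosen after seeing the data, gave 570 and 65 strong gained regions, with 90.0% of the 570 in the Dex list. Among regions at or above the median density of their class, the shares in the Dex and untreated lists were 52.7% and 59.7% of gained, 17.7% and 31.0% of lost and 97.0% and 97.5% of shared regions. For shared sites, average density gave 486 lower sites, and 49.5% of the higher sites were also higher for Dex over untreated. Deposited densities gave 3094 higher and 6 lower sites with 3.27% also higher, the 1.5-fold limit 1630 and 2821 with 52.1%, and the 4-fold limit 26 and 0 with 68.2%. Centring on the median log2 ratio, an alternative added after seeing the data, gave 175 lower sites and 67.3%. The share over all sites is not given for any of these settings. Joining regions within 150 bp or leaving out the chromosome 8 and 11 stretches or chromosome X, sites of several regions, or sites under 30 tags moved no count by over 1.5 times. Motifs and distances to genes were not run.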
